A study of Mus musculus with 15 samples.

Results

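The T cell receptor complex and its coreceptors were examined through 10 genes that were chosen by name. They are the CD3 chain genes Cd3d, Cd3e, Cd3g and Cd247, the coreceptor genes Cd4, Cd8a and Cd8b1, the kinase genes Lck and Zap70, and the adhesion receptor gene Cd2. All 10 were found, by their GENCODE identifiers, among the 46679 genes of the count and TPM tables. RNA had been sequenced from end-stage intracranial tumors and from naïve brain, with 5 groups of 3 mice and 15 samples in all. The hosts were immune competent C57BL/6 mice, aged 6 to 8 weeks at implantation, and such hosts have their own lymphocytes. The 4 tumor lines carried GFP and firefly luciferase, and were sorted for GFP apart from 005, which was selected with puromycin. CT2A (p53 WT) and GL261 (K-ras mutant, p53 mutant) had been induced with methylcholanthrene, 005 was driven by activated H-ras and AKT on a p53+/- background, and Mut3 has NF1 and p53 inactivated. Mice received 100000 cells of CT2A, GL261 or 005, and 500000 cells of Mut3, and each tumor group stands for 1 line. From its RNA-seq data the study classed GL261 and 005 as immunologically active and CT2A and Mut3 as inert. Those classes were therefore drawn from these samples.

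A T cell recognizes a peptide on an MHC molecule with its T cell receptor, whose antigen-binding chains have no signaling part of their own. They depend on the CD3 gamma, delta, epsilon and zeta chains, which carry the tyrosine motifs that are phosphorylated after binding. CD4 binds MHC class II and CD8 binds MHC class I, and both bring the kinase LCK to the receptor, after which ZAP-70 docks on the phosphorylated chains and passes the signal on. T cells are sparse in healthy brain, and transcripts of this receptor are therefore widely used to follow T cells in brain tumors. Several of the genes are not exclusive to T cells. NK cells also use CD247, ZAP-70 and CD2, and CD4 is found on some myeloid cells.

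Library totals lay between 3105119 and 13130158 expected counts and were lowest in naïve brain, where the deepest library had 5161132 counts. The floor of detection, set at 3 counts, covers counting error only. Scaled to the library totals without TMM factors, it lay between 0.228 and 0.966 CPM. The CPM levels of genes and marker sums are counts scaled to library size with edgeR's TMM factors. This range is therefore not on their scale, and the floor is applied to them as 3 counts. Several libraries stood apart from the other mice of their group. Replicate 2 of 005 had 261 CPM of Ptprc, which encodes the pan-leukocyte protein CD45, against at most 85.7 CPM in any other tumor. Replicate 3 of 005 had a summed neuron marker level of 3364 CPM, against at most 1740.4 CPM in the other tumors. Naïve brain replicate 2 was high for Cd4 and had a summed oligodendrocyte marker level of 4112 CPM, against 1613 and 1633 CPM in the other naïve brains. Several results are given with and without them. In these bulk samples, fewer T cells and less RNA per T cell cannot be told apart.

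The genes of the gamma, delta and epsilon chains lie side by side, and their promoter windows are shown because these neighbors gave very different counts. On GRCm38, Cd3g (ENSMUSG00000002033) lies at chr9:44969572-44980431 on the minus strand, Cd3d (ENSMUSG00000032094) at chr9:44981786-44987339 on the plus strand, and Cd3e (ENSMUSG00000032093) at chr9:44998740-45009627 on the minus strand. Cd3g and Cd3d are transcribed away from each other, with annotated starts 1355 bases apart, and the 3 genes span 40056 bases. The RefSeq table of promoter windows (GRCm38.p6, 250 bases before to 50 bases after a start) matched 7 of the 10 genes with 10 windows, while Cd4, Cd8b1 and Cd2 were not matched. The windows were searched on both strands for the core letters that ETS factors bind (AGGAAG), for those of RUNX factors (TGTGGT) and for those of the GATA family (AGATAA). The letters TATAAA of the classical core promoter element were searched as well. Matches in the printed windows did not overlap. Capitals mark the matches in the strand of the gene, so that CTTCCT is an ETS core on the other strand. The window of Cd3g is chr9:44980382-44980681 (minus strand), that of Cd3d is chr9:44981536-44981835 (plus strand) and that of Cd3e is chr9:45009562-45009861 (minus strand).
Cd3g: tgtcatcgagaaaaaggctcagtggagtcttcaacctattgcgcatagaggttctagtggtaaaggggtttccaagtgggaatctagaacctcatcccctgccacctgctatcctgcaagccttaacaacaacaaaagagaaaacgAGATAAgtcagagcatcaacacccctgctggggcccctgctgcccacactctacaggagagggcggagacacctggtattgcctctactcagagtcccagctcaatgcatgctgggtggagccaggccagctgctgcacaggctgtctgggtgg
Cd3d: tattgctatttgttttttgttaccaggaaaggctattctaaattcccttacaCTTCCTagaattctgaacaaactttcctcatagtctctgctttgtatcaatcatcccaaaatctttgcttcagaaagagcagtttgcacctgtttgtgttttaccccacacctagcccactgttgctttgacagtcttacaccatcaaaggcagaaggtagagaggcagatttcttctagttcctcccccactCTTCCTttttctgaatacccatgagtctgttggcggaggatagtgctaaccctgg
Cd3e: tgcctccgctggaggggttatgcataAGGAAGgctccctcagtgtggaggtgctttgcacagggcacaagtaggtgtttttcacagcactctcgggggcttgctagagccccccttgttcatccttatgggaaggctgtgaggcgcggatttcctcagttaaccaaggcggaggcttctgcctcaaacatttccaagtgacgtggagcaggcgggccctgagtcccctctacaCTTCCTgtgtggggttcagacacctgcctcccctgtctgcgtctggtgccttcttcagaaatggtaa
Cd3d and Cd3e each held 2 ETS cores, whereas Cd3g held a GATA core and no ETS core. Over all 10 windows, 7 held an ETS core, 2 a RUNX core, 1 a GATA core and 0 a TATA box. Of all 32851 promoter windows in the table, 35.4% held the ETS letters, 16.8% the RUNX letters, 11.2% the GATA letters and 13.6% the TATA letters. These matches describe letters only.

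Cd3g, the gamma chain gene, rose in 3 of the 4 lines. It stood at 0.905, 0.387 and 2.85 CPM in the naïve brains. It reached 7.14, 15.7 and 17.9 CPM in CT2A, 64.0, 23.8 and 38.3 CPM in GL261 and 25.2, 141 and 45.2 CPM in 005. In Mut3 it stayed at 2.397, 1.66 and 5.77 CPM and overlapped with naïve brain. Every CT2A, GL261 and 005 tumor lay above every naïve brain and every Mut3 tumor. Against naïve brain the log2 fold change was 3.27 (SE 0.81, edgeR adjusted p = 0.00660) in CT2A, 4.90 (SE 0.84, edgeR adjusted p = 0.00141) in GL261 and 5.65 (SE 0.86, edgeR adjusted p = 0.00182) in 005. The Mut3 tumors had a log2 fold change of 1.24 (SE 0.81, edgeR adjusted p = 0.236), which did not pass the test.

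Cd3d, the delta chain that pairs with epsilon, gave the lines the same order of medians. Its CPM values were 1.72, 1.64 and 2.13 in naïve brain, 7.31, 8.63 and 10.5 in CT2A and 27.4, 13.4 and 19.0 in GL261. They were 17.9, 94.5 and 33.5 in 005 and 1.74, 3.12 and 7.14 in Mut3. Mut3 overlapped with naïve brain at its low end, and its highest tumor lay just below the lowest CT2A tumor. Cd3d rose by a log2 fold change of 2.25 (SE 0.64, edgeR adjusted p = 0.0128) in CT2A, 3.43 (SE 0.65, edgeR adjusted p = 0.00267) in GL261 and 4.71 (SE 0.67, edgeR adjusted p = 0.00177) in 005, and the value in Mut3 was 1.13 (SE 0.64, edgeR adjusted p = 0.169).

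Cd3e, the epsilon chain with which both gamma and delta assemble, was counted at a far lower level than its neighbors. The 3 naïve brains held 0, 1.01 and 0 expected counts, the CT2A tumors 2.23, 0 and 4.87 and the GL261 tumors 1.97, 3.93 and 9.07. The 005 tumors held 2.94, 32.7 and 16.1 counts and the Mut3 tumors 0.988, 0 and 0.978. In the same 005 tumors Cd3d had 174, 783 and 470.4 counts and Cd3g had 245, 1169 and 635. Cd3e was the only one of the 10 genes that did not pass the filter on low counts. Its ratio to naïve brain, from summed counts with an exact 95% interval for counting error alone, was 20.5 (3.52 to 824) in 005. In a fit without the filter, Cd3e passed the test for 005 against Mut3 (log2 fold change 4.39, SE 1.29, edgeR adjusted p = 0.0226) but not for 005 against naïve brain (4.23, SE 1.45, edgeR adjusted p = 0.0756). The annotation places an antisense gene (Gm48719) and a further gene on the same strand (Gm48720) over Cd3e. Whether the counting was strand-specific is not given in the sources used here, and the part of this overlap in the low counts was not tested.

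**Figure D1:**
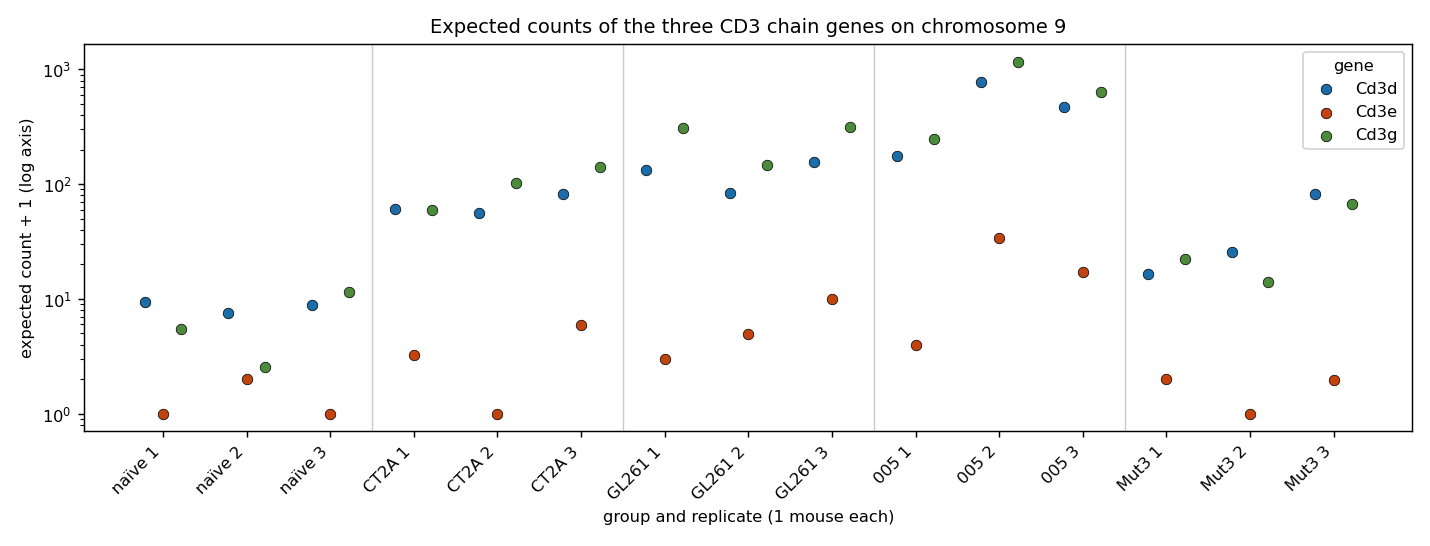
Expected counts plus 1 on a log axis for Cd3d, Cd3e and Cd3g in each of the 15 samples, 1 point per gene and mouse. Cd3e lies below Cd3d and Cd3g in every sample, with at most 32.7 counts where Cd3g has 1169 (005 replicate 2).

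Levels can be compared between genes only per length, and here the lengths used matter. The ratio of count to TPM is the same in every sample apart from a sample factor, and it gives each gene an effective length relative to that of Cd3d. This was 1.25 for Cd3e, between 0.653 for Cd2 and 2.23 for Cd4 for the other genes, and 0.101 for Cd3g. Annotated transcripts of Cd3g run from 412 to 2539 bases and those of Cd3d from 286 to 1617 bases. On the TPM scale, Cd3g therefore reached 54.6, 335 and 168 TPM in the 005 tumors, against 3.92, 22.6 and 12.6 TPM for Cd3d and 0.0528, 0.756 and 0.344 TPM for Cd3e. The TPM of Cd3g depends on this short length, so its fold changes between samples can be read but its TPM level should not be set against that of the other chains.

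Cd247 encodes the zeta chain, the signaling subunit that carries the most tyrosine motifs and that NK cells also use. It lies at chr1:165788681-165877277 on the plus strand and overlaps several other annotated genes, among them Pou2f1 on the opposite strand. Its levels were 0.148, 0.738 and 0.839 CPM in naïve brain, 2.75, 2.14 and 2.64 CPM in CT2A and 8.05, 2.07 and 6.80 CPM in GL261. They were 3.54, 19.1 and 4.42 CPM in 005 and 0.00241, 0.397 and 1.38 CPM in Mut3. All CT2A, GL261 and 005 tumors lay above naïve brain, yet CT2A did not pass the test, with a log2 fold change of 2.12 (SE 1.04, edgeR adjusted p = 0.112) and a 95% interval of −0.09 to 4.33. The increase passed in GL261, at 3.27 (SE 1.03, edgeR adjusted p = 0.0351), and in 005, at 3.94 (SE 1.04, edgeR adjusted p = 0.0228). Both calls depended on single libraries. The call in 005 was lost without 005 replicate 2 (2.77, edgeR adjusted p = 0.134) or any 1 of the naïve brains (edgeR adjusted p from 0.0536 to 0.0991). The call in GL261 was lost without GL261 replicate 1 (edgeR adjusted p = 0.0966) or replicate 3 (edgeR adjusted p = 0.0887) or any 1 of the naïve brains (edgeR adjusted p from 0.0692 to 0.115).

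The CD8 coreceptor genes had the largest fitted fold changes against naïve brain. Cd8b1 (chr6:71322788-71337494, plus strand) ends 35933 bases before the start of Cd8a (chr6:71373427-71379173, plus strand), and the 2 encode the beta and alpha chains of the heterodimer on cytotoxic T cells. Cd8a stood at 0.364, 0.309 and 0.313 CPM in naïve brain, all below the floor of 3 counts. It reached 3.29, 6.63 and 8.17 CPM in CT2A, 8.83, 12.8 and 15.1 CPM in GL261 and 6.42, 46.0 and 11.1 CPM in 005. The Mut3 tumors had 0.690, 0.922 and 2.69 CPM, above every naïve brain and below every tumor of the other 3 lines. Log2 fold changes over naïve brain were 4.19 (SE 0.91, edgeR adjusted p = 0.00363) in CT2A, 5.21 (SE 0.91, edgeR adjusted p = 0.00160) in GL261, 5.99 (SE 0.92, edgeR adjusted p = 0.00186) in 005 and 2.15 (SE 0.95, edgeR adjusted p = 0.0846) in Mut3. Since naïve brain held only 4 rounded counts of Cd8a in all, these fitted values depend on the prior count. A ratio to naïve brain was taken from summed counts over summed scaled library sizes, with the exact 95% interval for counting error alone. It was 18.7 (7.15 to 69.8) in CT2A, 40.3 (15.5 to 149) in GL261, 59.0 (22.9 to 217) in 005 and 4.91 (1.79 to 18.8) in Mut3.

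Cd8b1 moved with Cd8a. It had 0, 0.566 and 0.795 CPM in naïve brain, again from at most 3 counts per library, and 0.907, 1.95 and 3.38 CPM in Mut3. The other lines had 4.93, 11.8 and 9.74 CPM (CT2A), 17.3, 13.5 and 13.7 CPM (GL261) and 11.7, 78.3 and 23.5 CPM (005). The 3 lines again lay above Mut3, and Mut3 above naïve brain, without overlap. Cd8b1 rose by 4.37 (SE 0.91, edgeR adjusted p = 0.00293) in CT2A, 5.14 (SE 0.91, edgeR adjusted p = 0.00177) in GL261 and 6.48 (SE 0.93, edgeR adjusted p = 0.00177) in 005. For Mut3 the log2 fold change was 2.32 (SE 0.94, edgeR adjusted p = 0.0615) and its 95% interval was 0.31 to 4.33. This value passed with DESeq2 (2.38, DESeq2 adjusted p = 0.0282), without the filter on low counts (2.35, edgeR adjusted p = 0.0398) and without Mut3 replicate 1 (2.71, edgeR adjusted p = 0.0438). The calls of Cd3d, Cd3g, Cd8a and Cd8b1 against naïve brain held on leaving out each library of the groups compared. The ratio of Cd8b1 to naïve brain from summed counts was 21.5 (9.07 to 67.1) in CT2A, 36.8 (15.6 to 114) in GL261, 85.9 (36.7 to 265) in 005 and 5.54 (2.25 to 17.6) in Mut3, where naïve brain held 5 rounded counts in all.

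Cd4 (chr6:124864692-124888221, minus strand), the coreceptor of helper and regulatory T cells, did not share this pattern. The naïve brains had 1.32, 26.5 and 4.60 CPM, the CT2A tumors 1.71, 1.74 and 1.31 CPM and the Mut3 tumors 1.21, 1.49 and 1.53 CPM. The GL261 tumors had 2.46, 6.75 and 7.56 CPM and the 005 tumors 1.84, 9.35 and 8.76 CPM. The highest value of all was thus naïve brain replicate 2, with 106 expected counts against 6.49 and 17.0 in the other naïve brains. Cd4 was called lower in CT2A, at −2.76 (SE 0.89, edgeR adjusted p = 0.0230), and in Mut3, at −2.91 (SE 0.89, edgeR adjusted p = 0.0180), although the ranges overlapped with those of naïve brain. Without naïve brain replicate 2 the values were −0.66 in CT2A (edgeR adjusted p = 0.505) and −0.84 in Mut3 (edgeR adjusted p = 0.391), and neither passed. Both calls were also lost on leaving out any 1 tumor, with edgeR adjusted p from 0.0532 to 0.0789 in CT2A and from 0.0505 to 0.0595 in Mut3. Naïve brain replicate 2 also turned the sign in the other lines. GL261 had −0.92 and 005 had −0.69 with it, and 1.12 (edgeR adjusted p = 0.301) and 1.28 (edgeR adjusted p = 0.270) without it. Among the tumors, every GL261 and 005 tumor lay above every CT2A and Mut3 tumor, but by as little as 1.84 against 1.74 CPM.

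**Figure D2:**
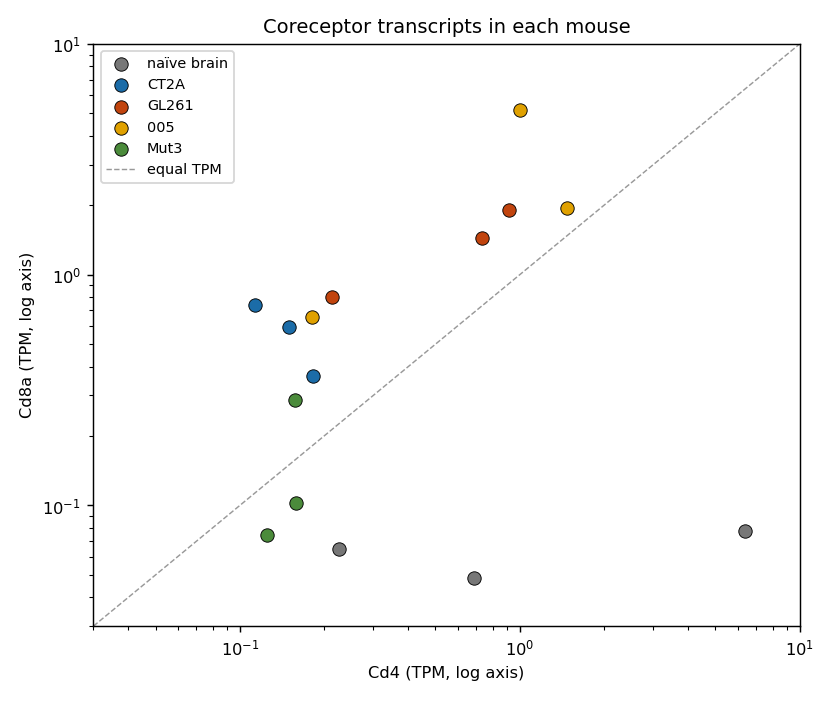
Cd8a against Cd4 in TPM, both on log axes, 1 point per mouse and colored by group, with a dashed line where the values are equal. CT2A, GL261 and 005 tumors lie above the line, 1 Mut3 tumor does too, and naïve brain lies below it, with naïve brain replicate 2 at 6.39 TPM of Cd4.

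Lck (chr4:129548344-129573641, minus strand) encodes the kinase that phosphorylates the CD3 chains. Its levels were 1.25, 0.493 and 3.05 CPM in naïve brain, 2.16, 1.91 and 4.89 CPM in CT2A and 11.1, 10.4 and 14.3 CPM in GL261. They were 4.71, 27.6 and 9.55 CPM in 005 and 2.96, 1.86 and 2.14 CPM in Mut3. Both CT2A and Mut3 overlapped with naïve brain, while GL261 and 005 lay above it. Lck rose by 2.94 (SE 0.70, edgeR adjusted p = 0.01002) in GL261 and 3.16 (SE 0.71, edgeR adjusted p = 0.00946) in 005, and had 0.95 (SE 0.70, edgeR adjusted p = 0.286) in CT2A and 0.57 (SE 0.70, edgeR adjusted p = 0.537) in Mut3. Without 005 replicate 2, the value in 005 was 2.21 and no longer passed (edgeR adjusted p = 0.0573), and neither did it without naïve brain replicate 1 (3.01, edgeR adjusted p = 0.0522).

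Zap70 (chr1:36761798-36782818, plus strand), the kinase that binds the phosphorylated chains, was scarce. It had 0, 1.31 and 2.09 expected counts in naïve brain, 2.88, 1.82 and 5.57 in CT2A and 0, 1.00 and 4.87 in Mut3. The GL261 tumors had 1.00, 11.2 and 9.75 counts and the 005 tumors 5.52, 16.0 and 6.79. Zap70 passed the test in none of the 11 comparisons. Its log2 fold changes in GL261 and 005 against naïve brain had 95% intervals of −0.48 to 4.61 and −0.58 to 4.47, so a difference was not detectable at this depth.

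Cd2 (chr3:101275899-101287939, minus strand) encodes an adhesion receptor of T and NK cells that binds CD48 in the mouse. It was listed at 0, 1.78 and 0 CPM in naïve brain and at 2.52, 5.17 and 9.30 CPM in CT2A. The GL261 tumors had 9.40, 6.37 and 9.54 CPM, the 005 tumors 4.99, 40.9 and 19.0 CPM and the Mut3 tumors 0.716, 1.60 and 0.920 CPM. The first 3 lines lay above naïve brain, with log2 fold changes of 3.28 (SE 1.03, edgeR adjusted p = 0.0208) in CT2A, 3.85 (SE 1.04, edgeR adjusted p = 0.0179) in GL261 and 5.21 (SE 1.05, edgeR adjusted p = 0.00557) in 005. Mut3 overlapped with naïve brain at 0.87 (SE 1.09, edgeR adjusted p = 0.545). Here naïve brain replicate 2 supplied all 7 rounded counts of naïve brain, and without it Cd2 passed in Mut3 against the remaining naïve libraries, both at 0 (edgeR adjusted p = 0.0329). The calls in CT2A and GL261 were lost without naïve brain replicate 1 (edgeR adjusted p = 0.0710 and 0.0632) or replicate 3 (0.0645 and 0.0552), and that in CT2A also without CT2A replicate 3 (0.0764).

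**Figure D3:**
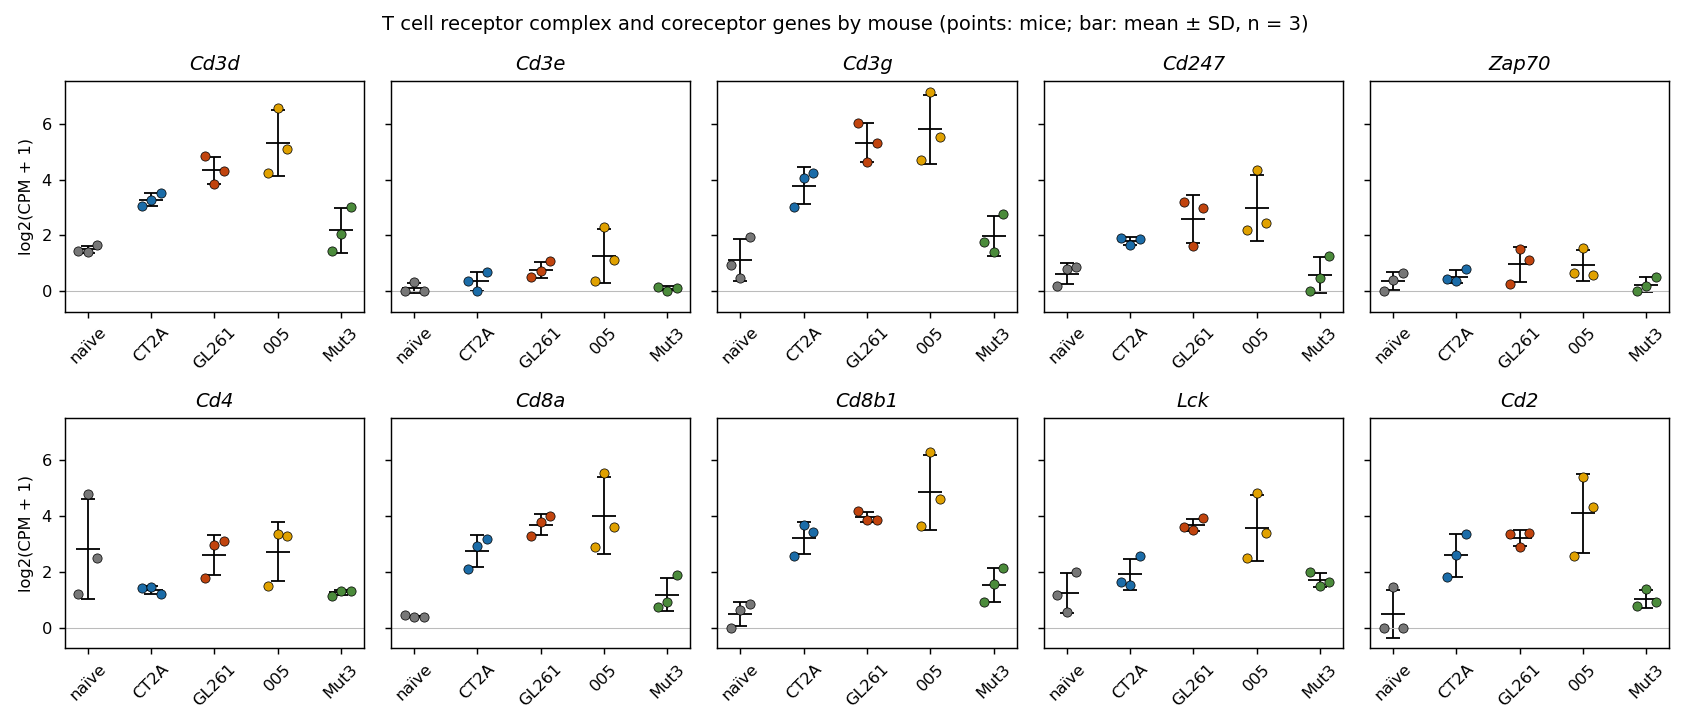
Levels of the 10 genes as log2(CPM + 1), 1 point per mouse, with the mean and SD of each group (n = 3). Cd3d, Cd3g, Cd8a and Cd8b1 of every CT2A, GL261 and 005 tumor lie above every naïve brain, and Cd4 is highest in 1 naïve brain.

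Counted over the 9 genes that passed the filter, 7 rose in GL261 and 7 in 005 against naïve brain, namely Cd3d, Cd3g, Cd247, Cd8a, Cd8b1, Lck and Cd2. Of all 17481 genes tested, 14.6% were called higher and 7.77% lower in GL261, and 11.6% higher and 1.05% lower in 005. Without 005 replicate 3 the shares in 005 were 17.6% and 18.1%, and without 005 replicate 2 they were 5.42% and 0.0765%. In CT2A, 5 genes rose (Cd3d, Cd3g, Cd8a, Cd8b1 and Cd2) and Cd4 was called lower, against 19.0% of all genes called higher and 20.2% called lower. In Mut3 no gene rose and Cd4 was called lower, against 17.9% and 19.8% of all genes. Of the 9 genes, 3 had an unadjusted p under 0.05 in Mut3 by edgeR, with Cd4 lower and Cd8a and Cd8b1 higher. That share was not counted over all genes. DESeq2 called 2 in Mut3, Cd4 lower and Cd8b1 higher, against 3653 lower and 3468 higher of all 17481 genes. The median log2 fold change over the 9 genes was 4.71 for 005, 3.43 for GL261, 2.25 for CT2A and 0.87 for Mut3, where the median of all genes lay between −0.08 and 0.11. The 4 comparisons share the same 3 naïve brains. When the fit held only naïve brain and 005, 4 genes were called in place of 7. Calls over all genes fell as well, to 219 higher and 3 lower of 14993, from 2033 and 184 of 17481. Leaving out single libraries gave 4 to 5 genes called in CT2A, 5 to 7 in GL261, 5 to 7 in 005 and 0 to 1 in Mut3, of either direction. Of all genes, these fits called 14.1% to 17.9% higher and 10.1% to 19.0% lower in CT2A. They called 9.24% to 12.1% higher and 0.772% to 4.79% lower in GL261. The shares were 5.42% to 17.6% and 0.0655% to 18.1% in 005, and 13.9% to 17.4% and 14.8% to 17.6% in Mut3. Leaving out 005 replicate 3 gave 7 genes called in 005, and leaving out 005 replicate 2 gave 5.

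**Figure D4:**
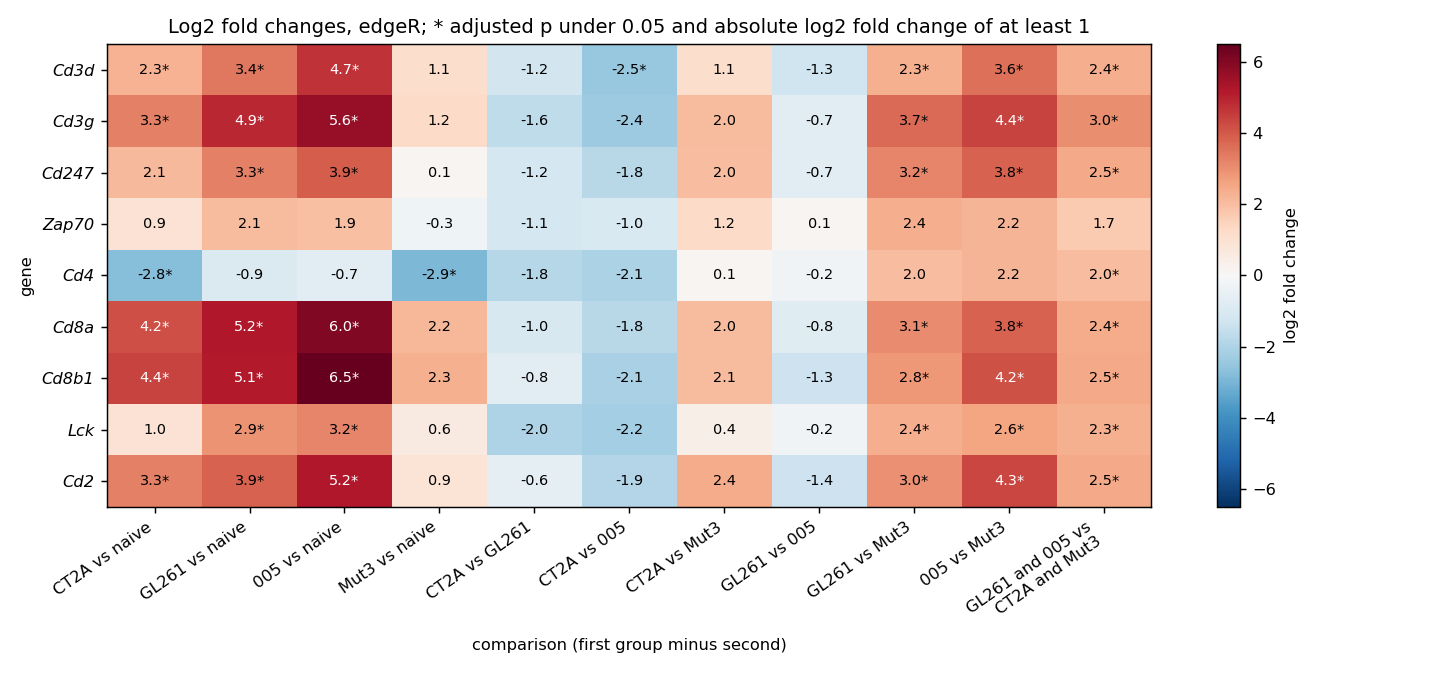
Log2 fold changes of the 9 genes that passed the filter in the 11 comparisons, the first group minus the second, with a star where edgeR's adjusted p was under 0.05 and the absolute value at least 1. Stars fill the GL261 and 005 columns against naïve brain and against Mut3 for all genes but Zap70 and Cd4, and the GL261 vs 005 column has none.

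Between the lines, Mut3 had the least of these transcripts. The same 7 genes were higher in GL261 than in Mut3 and in 005 than in Mut3, against 11.1% and 14.0% of all genes called in that direction and 6.10% and 5.76% called the other way. Cd3g differed most, by 3.66 (SE 0.74, edgeR adjusted p = 0.00526) between GL261 and Mut3 and by 4.41 (SE 0.76, edgeR adjusted p = 0.00233) between 005 and Mut3. The smallest differences that passed were those of Cd3d for GL261 (2.29, edgeR adjusted p = 0.0170) and Lck for 005 (2.59, edgeR adjusted p = 0.0144). For Cd4 and Zap70 the values were 1.99 (SE 0.87, edgeR adjusted p = 0.123) and 2.35 (SE 1.08, edgeR adjusted p = 0.142) in GL261, and 2.22 (SE 0.86, edgeR adjusted p = 0.0812) and 2.23 (SE 1.07, edgeR adjusted p = 0.151) in 005. The calls between GL261 and Mut3 depended on single tumors. Leaving out Mut3 replicate 1 or replicate 2 left 2 of them, Cd3g and Cd8a, and leaving out GL261 replicate 3 left 4. Calls over all genes fell too, from 1948 higher and 1067 lower of 17481. They were 880 and 553 of 18313 without Mut3 replicate 1, and 1173 and 699 of 18287 without Mut3 replicate 2. Without GL261 replicate 3 they were 1117 and 760 of 18508. Cd2 was lost on leaving out any 1 of these 6 tumors (edgeR adjusted p from 0.0576 to 0.104). When the fit held only 005 and Mut3, 4 genes were called in place of 7. Calls over all genes fell as well, to 584 higher and 341 lower of 15736, from 2456 and 1007 of 17481. Leaving out 005 replicate 2 left 5 genes called between 005 and Mut3, without Cd247 (2.65, edgeR adjusted p = 0.0590) and Lck (1.63, edgeR adjusted p = 0.0710), and both were also lost without Mut3 replicate 2 (edgeR adjusted p = 0.0525 for each). Over all genes, 2318 were called higher and 770 lower of 18308 without 005 replicate 2. Without Mut3 replicate 2 they were 1692 and 703 of 18287.

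CT2A lay between Mut3 and the other lines by the median log2 fold change of the 9 genes, which was 2.00 against Mut3, −1.16 against GL261 and −2.07 against 005. Against Mut3, 6 of the 9 genes did not overlap between the groups and were higher in CT2A. The share of all genes without overlap was not counted, so these 6 have no background to be set against. None of the 9 passed edgeR's adjusted threshold, by which 6.61% of all genes were called higher and 6.15% lower. Of the 9 genes, 5 had an unadjusted p under 0.05 by edgeR, a share not counted over all genes. DESeq2 called 4 of the 9 higher, and of all 17481 genes it called 1745 higher and 1460 lower. The nearest were Cd8b1 at 2.05 (SE 0.70, edgeR adjusted p = 0.0672), Cd8a at 2.04 (SE 0.70, edgeR adjusted p = 0.0687) and Cd3g at 2.03 (SE 0.71, edgeR adjusted p = 0.0707). Without Mut3 replicate 3, Cd8a and Cd3g passed (edgeR adjusted p = 0.0315 and 0.0436). Against GL261, 6 genes were lower in CT2A without overlap, again a share not counted over all genes. None of the 9 passed edgeR's adjusted threshold, by which 3.62% of all genes were called lower and 4.15% higher. By edgeR 2 of the 9 had an unadjusted p under 0.05. DESeq2 called 1 of the 9, and of all 17481 genes it called 995 lower and 1168 higher. Lck came nearest, at −1.99 (SE 0.64, edgeR adjusted p = 0.0733), and a fit of these 2 groups alone called 4 genes (Cd3d, Cd3g, Cd4 and Lck). That fit called 1119 lower and 1234 higher of all 14924 genes it tested. Against 005, 1 gene passed, where 1.99% of all genes were called lower and 2.12% higher. This was Cd3d, at −2.46 (SE 0.58, edgeR adjusted p = 0.0313), and without 005 replicate 2 it was −1.54 and did not pass (edgeR adjusted p = 0.0889), nor did it without any 1 of the CT2A tumors (edgeR adjusted p from 0.0726 to 0.137). The count between CT2A and 005 was 4 with DESeq2, 4 without the filter and 4 without 005 replicate 1. Calls over all genes also rose, from 348 lower and 371 higher of 17481. DESeq2 called 931 lower and 846 higher. There were 504 and 417 of 32244 without the filter, and 394 and 281 of 18334 without 005 replicate 1.

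GL261 and 005 were not told apart by these genes. None of the 9 passed, 1 (Cd3d) had an unadjusted p under 0.05 by edgeR, DESeq2 called 0, and of all genes 0.887% were called lower and 1.73% higher in GL261. The log2 fold change of GL261 against 005 was −0.75 for Cd3g (95% interval −2.16 to 0.66), −0.78 for Cd8a (−2.16 to 0.60) and −0.23 for Cd4 (−1.97 to 1.497). These intervals hold differences of more than 2-fold in either direction for Cd4, and of more than 4-fold in favor of 005 for Cd3g and Cd8a. Without 005 replicate 2 the sign turned for 5 of the 9 genes, and the log2 fold change was 0.25 for Cd3g, 0.51 for Cd247, 0.078 for Cd4, 0.48 for Cd8a and 0.74 for Lck. Cd3d, Cd8b1 and Cd2 stayed negative and Zap70 stayed positive.

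When the mean of GL261 and 005 was set against the mean of CT2A and Mut3, 8 of the 9 genes were higher, against 12.6% of all genes called higher and 4.29% lower, and Zap70 had 1.68 (SE 0.74, edgeR adjusted p = 0.115). As the classes were drawn from these samples, this count is not independent evidence of their direction. Cd3g had the largest difference, at 3.02 (SE 0.51, edgeR adjusted p = 0.00202), and Cd4 the smallest that passed, at 2.03 (SE 0.61, edgeR adjusted p = 0.0308). Only Cd3d, Cd3g and Cd4 were without overlap between the 6 tumors of each class, and the share of all genes without overlap was not counted. The call of Cd4 was lost on leaving out any 1 of 9 of the 12 tumors (lowest value 1.85, edgeR adjusted p from 0.0503 to 0.0734), while the other 7 calls held on leaving out each tumor. Since each class holds 2 lines, the comparison holds for these lines only.

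The balance of Cd8a to Cd4 was examined as log2 of the ratio of their TPM values, each with 0.1 TPM added. Its mean was −0.05 ± 0.55 (SD, n = 3) for Mut3, against 1.13 ± 0.34 for GL261, 1.35 ± 0.94 for 005 and 1.39 ± 0.63 for CT2A, whereas naïve brain had −2.86 ± 2.14. The naïve values ran from −5.19 to −0.99, the lowest being replicate 2. Among the 4 lines the means differed by at most 1.44, and an exact permutation test over the 369600 assignments of the 12 tumors gave p = 0.0916 (0.119 adjusted over 3 ratios). Without 005 replicate 3, the means differed by 1.88 (exact permutation test, adjusted p = 0.0389). Whether the test passed thus depended on that 1 tumor. The size of the difference also moved with the amount added, to 0.781 with 1 TPM, where 005 was highest, and to 1.98 with 0.01 TPM (exact permutation test, adjusted p = 0.138 and 0.234).

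Ratios that involve Cd3e were unreliable, because Cd3e lay below or near the added 0.1 TPM in most tumors. The log2 ratio of Cd3e to Ptprc was highest in Mut3 (mean −2.39) and lowest in 005 (−4.28), an apparent difference of 1.88 (exact permutation test, p = 0.0226, adjusted p = 0.0678). It was 2.07 with 1 TPM added (exact permutation test, adjusted p = 0.00409) but 1.06 with 0.01 TPM added (adjusted p = 0.819) and 1.33 with CPM (adjusted p = 0.594), and in both of these CT2A was lowest. With Cd3g in place of Cd3e, chosen after the low counts of Cd3e were seen, the order turned. Cd3g per Ptprc was highest in GL261 (mean 4.44 ± 0.19, SD, n = 3) and 005 (4.28 ± 0.42), and lowest in Mut3 (3.50 ± 0.60), a difference of 0.94 (exact permutation test, p = 0.0380, adjusted p = 0.0581). CT2A was at 3.62 ± 0.21. The log2 ratio of Cd247 to Cd3e ranged over 1.38 between line means (exact permutation test, p = 0.119). The ratio of Cd247 to Cd3g cannot rank Mut3 either, because Cd247 stood at 0.00042, 0.0711 and 0.239 TPM there, near or below the added 0.1 TPM. With it the mean was highest in Mut3, but without it Mut3 replicate 1 had the lowest ratio of all tumors (7.65e-05).

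The other genes of the receptor and its signaling path were taken as lists of known components. The constant region genes of the receptor chains followed the CD3 genes only in part. Trac, the alpha chain constant region, stood at 0.586, 1.76 and 1.81 CPM in naïve brain and at 10.9, 55.2 and 17.4 CPM in 005, and rose in CT2A (2.64, edgeR adjusted p = 0.00955), GL261 (3.41, edgeR adjusted p = 0.00471) and 005 (4.31, edgeR adjusted p = 0.00227). Trbc1, 1 of the 2 beta chain constant regions, rose in the same lines by 3.90, 4.34 and 5.61, and lost its call without naïve brain replicate 1 in CT2A (edgeR adjusted p = 0.0521) and GL261 (edgeR adjusted p = 0.0600). Trbc2, the other one, already stood at 27.9, 43.3 and 56.5 CPM in naïve brain and was called lower in Mut3, where it had 2.09, 6.12 and 6.89 CPM (−3.07, edgeR adjusted p = 0.000911). In those naïve brains Cd3e had at most 1.01 counts. Trbc1 and Trbc2 are near copies that can share reads, so their separate values are uncertain. Trdc did not pass the filter on low counts, and Trgc1, Trgc2 and Trgc4 were not analysed here.

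Of 23 genes of proximal T cell receptor signaling, 17 passed the filter. Against naïve brain 4 were called higher and 2 lower in CT2A, 4 and 1 in GL261, 5 and 0 in 005, and 5 and 3 in Mut3. Over all genes the shares called higher and lower were 19.0% and 20.2% in CT2A, 14.6% and 7.77% in GL261, 11.6% and 1.05% in 005 and 17.9% and 19.8% in Mut3, and with 17 genes the list's counts in CT2A and Mut3 were near that background. Without 005 replicate 2, 3 were called higher in 005. In CT2A 2 were called higher without naïve brain replicate 3 or CT2A replicate 3, and in Mut3 3 without naïve brain replicate 1 or Mut3 replicate 2. Fyb, Ptpn6, Ptpn22 and Vav1, which rose in CT2A, GL261 and 005, are genes that myeloid cells also use. Some of these calls rest on single libraries. Vav1 lost its call in CT2A without any 1 of the naïve brains or CT2A replicate 3 (edgeR adjusted p from 0.0538 to 0.101) and in 005 without 005 replicate 2 (2.51, edgeR adjusted p = 0.0735). Ptpn6 lost it in CT2A without naïve brain replicate 3 or CT2A replicate 3 (edgeR adjusted p = 0.0874 and 0.0748), and Ptpn22 lost it in Mut3 without naïve brain replicate 1 or 2 or Mut3 replicate 2 (edgeR adjusted p from 0.0505 to 0.109). Fyb, an adaptor of T and myeloid cells, rose in all 4 lines (2.73 for CT2A, 2.80 for Mut3, 2.89 for GL261 and 2.84 for 005), as did the phosphatase genes Ptpn6 and Ptpn22. Vav1, an exchange factor of blood cells, rose by 2.23, 3.19 and 3.34 in CT2A, GL261 and 005 and had 0.74 in Mut3. Prkcq, whose kinase acts downstream of the receptor, rose in Mut3 alone among the 4 comparisons with naïve brain, by 2.97, and was lower in GL261, 005 and CT2A than in Mut3. Rasgrp1, which is also expressed by neurons, fell in CT2A (−3.27) and in Mut3 (−5.30). The call in CT2A was lost without CT2A replicate 2 or 3 (edgeR adjusted p = 0.0536 and 0.0592), and without 005 replicate 3 Rasgrp1 also passed in 005 (−3.66, edgeR adjusted p = 0.00328).

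Among 6 surface partners of the receptor, 2 were called higher and 1 lower in CT2A, 1 and 1 in GL261, 3 and 0 in 005, and 0 and 2 in Mut3. Over all genes the shares called higher and lower were 19.0% and 20.2% in CT2A and 14.6% and 7.77% in GL261. They were 11.6% and 1.05% in 005 and 17.9% and 19.8% in Mut3. On leaving out any 1 of the naïve brains, 1 of the 6 partners was called higher in CT2A and 1 in 005. Of all genes, 14.9% to 17.9% were then called higher in CT2A and 5.96% to 9.25% in 005. Cd48, the ligand of CD2, rose in CT2A (2.38), GL261 (3.06) and 005 (3.35) and had 0.43 in Mut3. Cd28, the costimulatory receptor, rose in CT2A (3.94) and 005 (4.53). Its level in CT2A ranged from 0.113 to 10.01 CPM. Both calls were lost without any 1 of the naïve brains (edgeR adjusted p from 0.0507 to 0.145), that in CT2A also without CT2A replicate 2 (2.21, edgeR adjusted p = 0.222) and that in 005 without 005 replicate 2 (3.20, edgeR adjusted p = 0.217). Cd5, an inhibitory receptor of T cells, had 0 counts in all naïve brains and all Mut3 tumors and 2.27, 0.161 and 1.16 CPM in GL261. It had 0, 0 and 0.238 CPM in CT2A and 0.478, 2.87 and 3.37 CPM in 005, where it was called higher (7.12). That call was lost without any 1 of the naïve brains or 005 replicate 2 (edgeR adjusted p from 0.0778 to 0.112). Thy1, which neurons carry in abundance, fell in CT2A (−3.54), GL261 (−2.16) and Mut3 (−4.16). Without 005 replicate 3 it also passed in 005 (−3.07, edgeR adjusted p = 0.00111), and in GL261 the call was lost without naïve brain replicate 1 or 2 or GL261 replicate 1 or 3 (edgeR adjusted p from 0.0606 to 0.143). Of 12 lineage factors 11 passed the filter, and 2 were called higher and 2 lower in CT2A, 0 and 1 in GL261, 2 and 0 in 005, and 0 and 1 in Mut3. With 11 factors, the counts in CT2A were near the shares over all genes given above. Without 005 replicate 2, none was called in 005, and without naïve brain replicate 1, 1 was called higher there. The shares of all genes called higher were then 5.42% and 5.96%. In CT2A none of the factors was called higher without naïve brain replicate 1 or 3 or CT2A replicate 2, and 1 without CT2A replicate 1 or 3. In these fits 14.1% to 17.7% of all genes were called higher. Runx3, a factor of cytotoxic T cells, stood at 3.99, 65.8 and 3.58 CPM in 005 and 2.70, 3.66 and 3.17 CPM in CT2A. It was called higher in 005 (5.10, edgeR adjusted p = 0.0119), but 005 replicate 2 carried the value, which was 2.43 (edgeR adjusted p = 0.130) without it. Bcl11b, used by T cells and by neurons, fell in CT2A (−3.82), GL261 (−2.403) and Mut3 (−6.55), and the call in GL261 was lost on leaving out any 1 naïve brain or GL261 replicate 1 or 3 (edgeR adjusted p from 0.0544 to 0.131).

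Markers of other cells moved beside the T cell receptor genes. Of 8 microglia and macrophage markers, 7 were called higher than naïve brain in CT2A, GL261 and 005, while none was called higher and 2 lower in Mut3. Of all genes, 19.0%, 14.6% and 11.6% were called higher in CT2A, GL261 and 005. In Mut3 17.9% were called higher and 19.8% lower. Of the 8 markers, 5 were called higher in CT2A without naïve brain replicate 1 or CT2A replicate 3. The count was 6 without naïve brain replicate 2 or 3 or CT2A replicate 2. Of all genes, 14.1% to 17.9% were then called higher. GL261 had 6 without naïve brain replicate 1 or GL261 replicate 3 (9.24% and 9.87% of all genes). In 005, 6 were called without 005 replicate 2 (5.42%). In Mut3 1 was called lower without naïve brain replicate 2 or any 1 Mut3 tumor (14.8% to 16.4%). The summed level of these 8 markers was 155 to 215 CPM in naïve brain, 441 to 569 CPM in CT2A and 757 to 1295 CPM in GL261. It was 599.6 to 1692 CPM in 005 and 89.2 to 273 CPM in Mut3. Microglia and macrophage markers thus put the groups in the order of Cd3g by their medians, except that GL261 stood above 005. Ptprc likewise rose in CT2A (3.50), GL261 (4.35) and 005 (5.42), with 1.46 in Mut3.

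NK cell markers, of interest because Cd247, Zap70 and Cd2 are shared with NK cells, had a sum that 1 gene dominated. Over 7 genes they stood at 0.374 to 2.07 CPM in naïve brain, 52.4 to 111 CPM in CT2A and 11.04 to 15.7 CPM in GL261. In 005 the sum was 11.4 to 72.6 CPM and in Mut3 it was 2.31 to 4.87 CPM. Most of the sum in CT2A was Klra4, at 71.5, 96.3 and 45.1 CPM, whereas the NK receptor gene Ncr1 had 0.857, 0.153 and 0 CPM there. Klra4 belongs to a family of near copies that can share reads. Without Klra4, a choice made after its values were seen, the sum was 8.36, 14.2 and 7.26 CPM in CT2A, 9.26, 9.78 and 10.4 CPM in GL261 and 5.57, 62.8 and 7.69 CPM in 005. CT2A and GL261 then overlapped, and 005 replicate 2 was highest. Of 4 NK markers that passed the filter, 2 were called higher than naïve brain in CT2A, GL261 and 005 and 0 in Mut3. The shares of all genes called higher were 19.0%, 14.6%, 11.6% and 17.9% in these lines. Leaving out naïve brain replicate 1 left 0 in GL261, leaving out naïve brain replicate 2 or 3 or GL261 replicate 3 left 1, and leaving out 005 replicate 3 gave 4 in 005.

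Summed neuron markers were lower in every tumor than in any naïve brain, while the calls differed between lines. All 8 neuron markers were called lower than naïve brain in CT2A and in Mut3 and none in GL261 or 005, with summed levels of 4450.4 to 5762 CPM in naïve brain, 168 to 901 CPM in CT2A and 43.3 to 121 CPM in Mut3. The sums were 624 to 1740.4 CPM in GL261 and 160.3 to 3364 CPM in 005. The lack of calls in 005 went with replicate 3, without which all 8 neuron markers and 5 of 6 oligodendrocyte markers were called lower, as were 18.1% of all genes. In CT2A, 4 neuron markers were called lower without CT2A replicate 2 and 6 without CT2A replicate 3. Of 6 oligodendrocyte markers, 3 were called lower in CT2A, 4 in Mut3 and none in GL261 or 005. The count in CT2A was 0 without naïve brain replicate 2, CT2A replicate 2 or CT2A replicate 3 and 2 without naïve brain replicate 1, and that in Mut3 was 2 without naïve brain replicate 2 or Mut3 replicate 1. Of 4 B cell markers that passed the filter, 2 were called higher in GL261 and 2 in 005, against 14.6% and 11.6% of all genes. The summed levels of the B cell markers there were 7.98 to 118 and 5.94 to 23.5 CPM against 2.05 to 3.59 CPM in naïve brain. The count in 005 was 0 without any 1 of the naïve brains or 005 replicate 2 and 1 without 005 replicate 3, and that in GL261 was 1 without naïve brain replicate 2 or 3 or GL261 replicate 2 or 3. Of 7 dendritic cell markers tested, 0 were called higher against naïve brain in any line and 1 was called lower in Mut3. Without 005 replicate 3, 1 was called higher and 1 lower in 005, and in CT2A 1 was called higher without CT2A replicate 1 and 1 lower without CT2A replicate 2. The part of these other cells in the levels of Cd247, Cd2, Cd4, Lck and Zap70 was not tested.

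**Figure D5:**
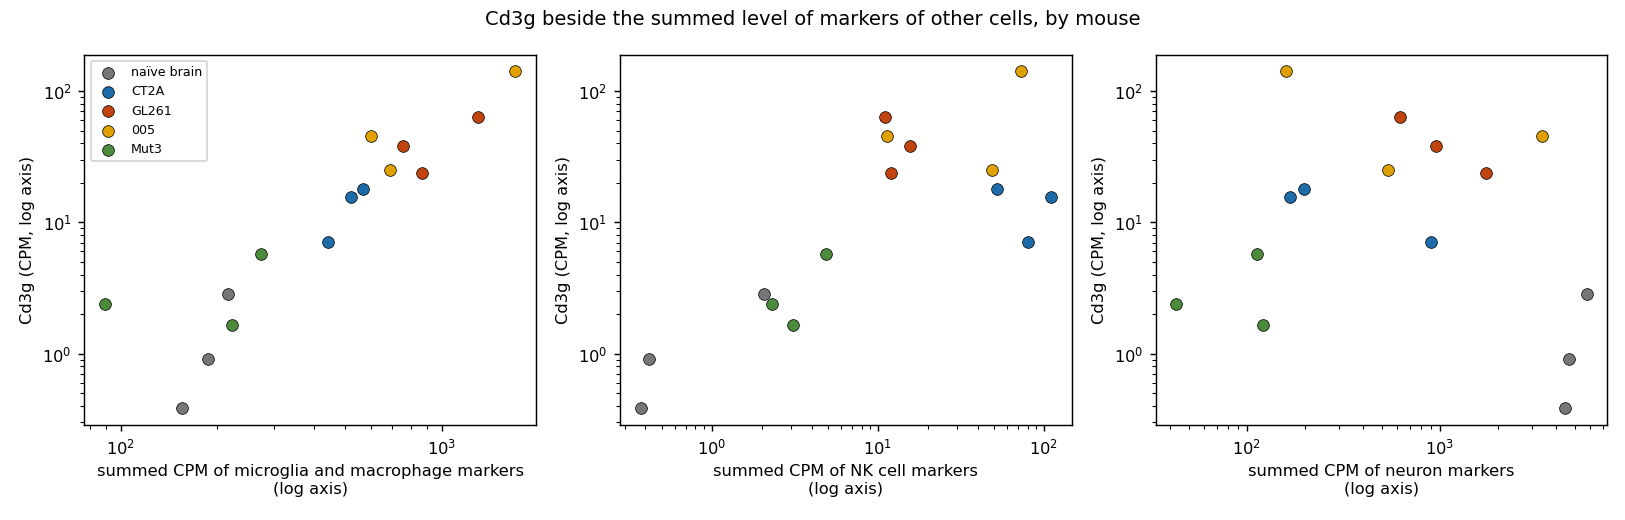
Cd3g in CPM against the summed CPM of microglia and macrophage markers, NK cell markers and neuron markers, all on log axes, 1 point per mouse. Cd3g and the microglia and macrophage sum are both lowest in naïve brain and Mut3 and highest in 005 replicate 2, while the NK sum has its highest median in CT2A, where most of it is Klra4.

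Over the 12 tumors, the genes outside the set whose log2 CPM was most like that of Cd3g were Tnfrsf4 (Pearson r = 0.979), Itgax (0.973), Il10ra (0.968), Cd40 (0.967), Cd37 (0.967), Snx20 (0.964), Ptprc (0.964), Gna15 (0.964), Samsn1 (0.961) and Tnfaip8l2 (0.960). Cd3g took the place of Cd3e here after the low counts of Cd3e were seen. Within the set, r with Cd3g was 0.963 for Cd3d, 0.962 for Cd8b1, 0.954 for Cd8a, 0.930 for Cd247, 0.921 for Cd2, 0.864 for Lck, 0.727 for Cd4 and 0.688 for Zap70. These correlations are descriptions over tumors of 4 lines that share lines and that include 005 replicate 2, the highest tumor for Cd3g. The lower values belonged to Zap70, with at most 16.0 counts in a tumor, and to Cd4.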

How the data were processed

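Reads were aligned by the authors with STAR v2.4.2a to the GENCODE mouse genome, duplicates were marked with Picard and quality metrics came from RNA-SeQC. The submitters' processing notes also name Salmon, DESeq2 1.18.1 and mm10. The authors deposited expected counts, which need not be whole and are not normalized between samples, and TPM values, which are scaled per length and to 1 total. The quantifier's settings and the strand setting are not given in the sources used here.

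Samples were grouped by their labels. Expected counts were rounded and tested with edgeR 4.0.16 in R 4.3.3 (filterByExpr, TMM, quasi-likelihood test on all 15 samples, no covariate), after the steps were tested on simulated data. A gene was called at a Benjamini-Hochberg adjusted p under 0.05 over 17481 genes with a log2 fold change of 1 or more in size, and log2 CPM used a prior count of 2. Ratios of TPM were compared by exact permutation tests, in which a larger spread between line means counts as more extreme (one-sided), with adjustment over 3 ratios. Ratios to naïve brain used exact 95% intervals.

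The named genes are the 10 genes, the genes of the lists and the 10 genes most like Cd3g. The genes and lists were chosen with earlier results of these data known. Replicates are separate mice and no 2 libraries agreed within sampling noise. The alternatives were DESeq2 1.42.0, library size scaling, no filter, no threshold on the fold change, a fit of only the groups compared, the replicate number as a block, other pseudocounts, CPM for the ratios, and each sample left out in turn. Leaving out samples for the lists, and the NK marker sum without Klra4, were added after the data were seen.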

Additional observations from a re-analysis of the deposited data

Results flagged for a closer look

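The tumor lines differed in these genes by edgeR's test of the difference itself, in 15 cases. Cd3d was lower in CT2A than in 005, with a log2 fold change of −2.46. Higher levels in GL261 than in Mut3 were found for Cd3g (3.66), Cd247 (3.15), Cd8a (3.06), Cd2 (2.98), Cd8b1 (2.81), Lck (2.37) and Cd3d (2.29). Between 005 and Mut3 the log2 fold changes were 4.41 for Cd3g, 4.34 for Cd2, 4.15 for Cd8b1, 3.84 for Cd8a, 3.82 for Cd247, 3.58 for Cd3d and 2.59 for Lck. Every 005 and GL261 tumor lay above every Mut3 tumor for each of these 7 genes, and the share of all genes that did so was not counted. No formal outlier test was applied, since each group holds 3 samples.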

How the results depend on the processing

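The count of genes called for GL261 and 005 against CT2A and Mut3 was 7 to 9 under every alternative. Library size in place of TMM and the lack of a threshold on the fold change moved no count by more than 1.5 times. Without the filter the counts were 2 for Mut3 against naïve brain (Cd8b1 higher and Cd4 lower), 4 for CT2A against 005 and 3 for CT2A against Mut3. Of all 32244 genes, that fit called 3084 higher and 3501 lower, 417 and 504, and 1325 and 1069, in that order. DESeq2 gave 2 (again Cd8b1 higher and Cd4 lower), 4 and 4 for these comparisons and 1 for CT2A against GL261. Over all 17481 genes, DESeq2 called 3468 higher and 3653 lower for Mut3 against naïve brain, and 846 and 931 for CT2A against 005. It called 1745 and 1460 for CT2A against Mut3, and 1168 and 995 for CT2A against GL261. Fits of only the samples compared gave 4 for 005 against naïve brain, 4 for CT2A against GL261, 0 for CT2A against 005, 3 for CT2A against Mut3 and 4 for 005 against Mut3. Over all genes, these fits called 219 higher and 3 lower, 1234 and 1119, 100 and 8, 1550 and 1510, and 584 and 341, in that order. The main fit called 2033 and 184, 726 and 632, 371 and 348, 1156 and 1075, and 2456 and 1007. With the replicate number as a block the count was 2 for Mut3 against naïve brain (Cd8b1 higher and Cd4 lower) and 0 for CT2A against 005, and the other counts moved by less than 1.5 times. Over all genes, the block gave 2931 higher and 3265 lower for Mut3 against naïve brain, and 245 and 148 for CT2A against 005. The same-numbered samples are different mice, and of 30 pairs 1 had a correlation of deviations over 0.1 (−0.33 to 0.26), so the numbers do not pair the samples. Leaving out single samples gave 0 to 4 for CT2A against 005, 0 to 2 for CT2A against Mut3, 0 to 1 for Mut3 against naïve brain, 2 to 6 for GL261 against Mut3, 5 to 8 for 005 against Mut3 and 0 for CT2A against GL261 and for GL261 against 005. Over all genes, GL261 against Mut3 then gave 880 to 1725 higher and 524 to 760 lower (main fit 1948 and 1067). For 005 against Mut3 there were 1177 to 2591 higher and 583 to 1189 lower (main fit 2456 and 1007). CT2A against 005 gave 142 to 390 higher and 37 to 400 lower (main fit 371 and 348). CT2A against Mut3 gave 699 to 967 and 502 to 793 (main fit 1156 and 1075). CT2A against GL261 gave 265 to 562 and 265 to 514, and GL261 against 005 gave 152 to 517 and 23 to 556. The causes were not tested, other than that these fits hold fewer samples.

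The log2 ratio of Cd3e to Ptprc differed between line means by 2.07 with 1 TPM added (exact permutation test, adjusted p = 0.00409), but by 1.06 with 0.01 TPM added (adjusted p = 0.819) and 1.33 with CPM (adjusted p = 0.594), both with CT2A lowest. On leaving out single tumors it differed by 1.42 to 2.18, with exact permutation adjusted p = 0.0487 without CT2A replicate 2 and 0.0389 without 005 replicate 3. Cd8a to Cd4 differed by 0.781 with 1 TPM added (005 highest), 1.98 with 0.01 TPM and 1.98 with CPM, none of which passed (exact permutation test, adjusted p = 0.138, 0.234 and 0.237), and by 1.27 to 1.88 on leaving out single tumors. Cd247 to Cd3e differed by 0.774, 1.72 and 1.69 in these settings (adjusted p = 0.0729, 0.819 and 0.594). The block gave p = 0.200, 0.0486 and 0.231 for the ratios of Cd8a to Cd4, Cd3e to Ptprc and Cd247 to Cd3e (exact permutation test). With Cd3g for Cd3e the order of lines turned, at 0.94 to Ptprc and 1.40 for Cd247, the latter being set largely by the added 0.1 TPM.

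Single log2 fold changes turned sign in 21 cases, none of them called. With the block these were Cd247 in Mut3 against naïve brain (−0.00542) and Zap70 in GL261 against 005 (−0.15), and with library size Cd4 in CT2A against Mut3 (−0.00163). Without naïve brain replicate 2, Cd4 was 1.12 in GL261 and 1.28 in 005. Mut3 against naïve brain gave −0.32 without naïve brain replicate 1 and −1.58 without Mut3 replicate 3 for Cd247, and 0.71 without naïve brain replicate 3 and 0.26 without Mut3 replicate 1 for Zap70. GL261 against 005 without 005 replicate 2 gave 0.25 for Cd3g, 0.51 for Cd247, 0.078 for Cd4, 0.48 for Cd8a and 0.74 for Lck. Cd4 there was 0.19 without GL261 replicate 1 and 0.019 without 005 replicate 3. Zap70 there was −0.42 and −0.000295 without GL261 replicates 2 and 3, and −0.14 and −0.23 without 005 replicates 1 and 3. Lck in CT2A against Mut3 was −0.17 without CT2A replicate 3. At the other end of these ranges, GL261 against 005 without 005 replicate 1 gave −1.15 for Cd3g, −1.06 for Cd247, −0.68 for Cd4, −1.22 for Cd8a and −0.64 for Lck. Cd4 without naïve brain replicate 1 was −1.45 in GL261 and −1.21 in 005, and Zap70 in Mut3 without its replicate 3 was −1.79. Among the other values of single genes, 1006 kept their direction and call, 35 gained a call and 68 lost it.

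Low counts limit Cd3e and Zap70 in all groups, and Cd8a, Cd8b1, Cd247 and Cd2 in naïve brain, where most libraries held at most 3 counts. The cause of the low Cd3e counts was not tested.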
